A study of Homo sapiens with 16 samples.

Results

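The 9 genes described here encode histones whose RNA was read in poly(A)-selected libraries. They were chosen by symbol, matched through NCBI gene numbers, and make up 9 of the 27434 gene rows in the files. They are 6 genes of the replication-dependent class, namely the linker histone H1-2, the H2A gene H2AC6 and the H2B genes H2BC4, H2BC5, H2BC12 and H2BC21. The other 3 belong to the replication-independent class, namely the linker histone H1-10 (H1x), the H2A variant gene H2AZ1 and the H3.3 gene H3-3B. All 9 passed the filter on low counts in each fit. RNA came from 2 human tumour lines, 8 libraries of U2OS (osteosarcoma) and 8 of HCT116 (colorectal carcinoma), in 8 groups of 2.

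The 4 U2OS groups, all wild type for SAM68, received control siRNA, SAM68 siRNA, the control plasmid pcDNA3.1(+), or pcDNA3-HA-SAM68, which carries the mouse gene. The 4 HCT116 groups crossed genotype, wild type or SAM68 knockout, with control or NORAD siRNA. Every group was transfected with Lipofectamine 3000, with siRNA at 50 nM or 100 ng of plasmid per 20000 cells, and harvested after 48 h. SAM68 is an RNA-binding protein encoded by KHDRBS1, and NORAD is a long noncoding RNA that binds Pumilio proteins. The series asked whether SAM68 is needed for that regulation. The labels do not say whether the knockout line is 1 clone, nor whether replicate libraries stem from separate cultures. P-values therefore measure only the spread between these libraries, which may be technical.

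Libraries held 11349545 to 27387412 expected counts. KHDRBS1 stood at 32.5 to 45.6 CPM (reads scaled to the effective library size) in the knockout libraries and at 215 to 250 CPM in wild-type HCT116. In U2OS it was 75.4 and 48.2 CPM with SAM68 siRNA against 229 and 232 CPM with control siRNA. With the SAM68 plasmid it was 523 and 589 CPM, against 220 and 273 CPM with the control plasmid. The plasmid carries the mouse gene and reads were aligned to hg19, so plasmid reads count here only where they matched the human gene. NORAD fell in both genotypes (edgeR adjusted p = 0.00099 and 0.00609). The summed level of 12 colon epithelial markers was 3873 to 5315 CPM in HCT116 and 643 to 1261 CPM in U2OS. For 12 mesenchymal and bone markers it was 5803 to 9767 CPM in U2OS and 120 to 182 CPM in HCT116, and 5 markers of blood, endothelial and liver cells summed to at most 1.28 CPM in any library.

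Replication-dependent histone genes supply chromatin protein to cells that are copying their DNA. Their RNAs are unusual in ending at a conserved stem-loop, which is bound by the stem-loop binding protein SLBP, instead of in a poly(A) tail. Polyadenylated forms of some of these genes arise when the transcript runs on past the stem-loop, or is spliced around it, to a downstream poly(A) signal, and such forms are known from cells leaving the cell cycle. Replication-independent histone genes such as H2AZ1 and H3-3B give ordinary polyadenylated RNAs throughout the cycle. A library selected on poly(A) is therefore meant to read the RNAs of H2AZ1 and H3-3B, and the replication-dependent class only as far as its transcripts carry a tail. Untailed RNA carried through the selection was not measured.

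The stem-loop sites are shown because they separate the ways in which these RNAs can end. Of the 9 genes, 4 had the histone stem-loop in a GENCODE transcript (build GRCh38). Each site is printed with 7 bases on either side, and capitals mark the stem-loop.
H2AC6: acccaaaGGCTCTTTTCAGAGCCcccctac
H2BC21: ctccaaaGGCTCTTTTCAGAGCCacccacc
H2BC4: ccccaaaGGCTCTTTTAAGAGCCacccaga
H2BC5: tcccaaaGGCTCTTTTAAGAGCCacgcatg

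These windows lie at chr6:26124662-26124691 on the plus strand (H2AC6), chr1:149886181-149886210 on the minus strand (H2BC21), chr6:26123465-26123494 on the minus strand (H2BC4) and chr6:26158580-26158609 on the plus strand (H2BC5). The capitals of H2AC6 and H2BC21 are the same, and so are those of H2BC4 and H2BC5. Only 73 of 83129 protein-coding GENCODE transcripts (0.0878%) held such a match. The H2BC21 transcript ran on for 1729 bases past the stem-loop and had AATAAA or ATTAAA, the poly(A) signal letters, 18 bases from its end. These letters are common, and 43.8% of protein-coding GENCODE transcripts had them in their last 46 bases. H2AC6 had 3 annotated transcripts. A protein-coding one of 1654 bases ran on for 1114 bases past the stem-loop, with the signal letters 9 bases from its end, and one annotated for nonsense-mediated decay ran on for 1128 bases. The third, protein coding and of 1462 bases, had neither the stem-loop nor the signal letters near its end. H2BC4 and H2BC5 each had a pair of annotated forms, one with the stem-loop and one without. For H2BC4 these were a 571-base transcript of 1 exon with the stem-loop, and a 659-base transcript of 2 exons that lacked it and had the signal letters 17 bases from its end. For H2BC5 they were a 496-base transcript that ended 39 bases after the stem-loop, with the signal letters 21 bases from its end, and a 789-base spliced transcript without it, with the signal letters 19 bases from its end. The annotated transcripts of H1-2 and H2BC12 (642 and 381 bases) held no stem-loop match. They are shorter than the counted rows (732 and 787 to 839 bases), so the search could not find a stem-loop beyond their ends. H1-10, H2AZ1 and H3-3B had no stem-loop match either. Their main transcripts carried the signal letters 16, 14 and 14 bases from the end. No match says only that these letters are not in the annotated transcript.

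The lengths deposited for the counted rows differ from those of some of these transcripts. They were 546 bases for H2AC6, 438 bases for H2BC4, 732 bases for H1-2 and 787 to 839 bases for H2BC12. The counted H2AC6 row was thus shorter than each of its 3 annotated transcripts. The H2BC4 row was shorter than both of its annotated forms (571 and 659 bases). In the annotated transcripts the stem-loop began at base 525 for H2AC6 and base 440 for H2BC4. These 2 row lengths therefore do not tell whether the counted RNA ran on to a poly(A) tail. The H1-2 and H2BC12 rows were longer than their annotated transcripts (642 and 381 bases). The TPM values and their order rest on these row lengths.

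On the deposited TPM scale, which is per length of the row and so allows levels of different genes to be set side by side, H2AZ1 was the highest of the 9 in both lines. Its mean was 1599 ± 131 TPM in U2OS and 1922 ± 125 TPM in HCT116 (SD, n = 8 libraries each, over all treatments). H2A.Z, its product, is a variant placed at promoters and other regulatory regions. H3-3B came next, with 420 ± 21.6 TPM in U2OS and 577 ± 43.4 TPM in HCT116, and its product H3.3 is deposited outside of replication. In U2OS the H2B gene H2BC12 reached 383 ± 79.1 TPM, with a range of 242 to 456 TPM that overlapped the 383 to 444 TPM of H3-3B. In HCT116 H2BC12 was at 39.1 ± 5.52 TPM, far below H3-3B in all 8 libraries.

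The lower ranks of that order were as follows. In U2OS the linker histone genes H1-2 (126 ± 12.3 TPM) and H1-10 (119 ± 18.6 TPM) overlapped each other. Below them H2BC5 (28.8 ± 5.39 TPM) and H2AC6 (25.3 ± 6.06 TPM) overlapped, and so did H2BC4 (11.4 ± 1.78 TPM) and H2BC21 (11.1 ± 2.74 TPM). In HCT116 the ranges of H1-10 (52.8 ± 18.6 TPM) and H1-2 (41.3 ± 6.84 TPM) overlapped, as did those of H1-2 and H2BC12. H2BC5 (10.7 ± 3.87 TPM), H2AC6 (5.45 ± 1.39 TPM) and H2BC4 (2.66 ± 0.99 TPM) followed, each overlapping the next. H2BC21 was last at 0.66 ± 0.24 TPM and lay below H2BC4 in all 8 libraries. RSEM shares reads that match several near-identical copies, and expected counts were not whole in 11 of 16 libraries for H2BC4 and H2BC21, 12 for H2BC5 and 16 for H2BC12 and H3-3B, so reads of these genes may be split with related sequences. The low ranks in HCT116 rest on few reads, with 4 to 13.3 expected counts per library for H2BC4 and 7.7 to 28.6 for H2BC21.

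The 6 replication-dependent genes described here held most reads of a class whose rows were mostly near 0 in these libraries. Of 65 rows for replication-dependent histone genes, 50 were under 1 CPM in every U2OS library and 58 in every HCT116 library. Reads on all 65 rows summed to 172 to 311 CPM in U2OS and 38.4 to 50.9 CPM in HCT116, which was 4.92 to 7.82% and 1.17 to 1.87% of all histone reads. The 6 replication-dependent genes described here held 84.5 to 92.0% of that sum in U2OS and 74.5 to 89.0% in HCT116. H2BC12 alone held 49.5 to 67.1% in U2OS and 30.5 to 39.8% in HCT116. The 6 were chosen with earlier results of these data known, so their share is only a description and may follow from that choice. H2BC11, not among them, had a higher mean than H2BC4 in U2OS (10.25 against 1.73 CPM) and a lower one in HCT116 (0.15 against 0.43 CPM). The replication-independent sum, over 12 rows, was 2637 to 3749 CPM in U2OS and 2679 to 3407 CPM in HCT116, and these ranges overlapped. H1-10, H2AZ1 and H3-3B held 39.9 to 47.7% of it in U2OS and 60.0 to 66.3% in HCT116. The RNA of bulk cultures does not tell fewer cells with a transcript from less transcript per cell.

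**Figure D1:**
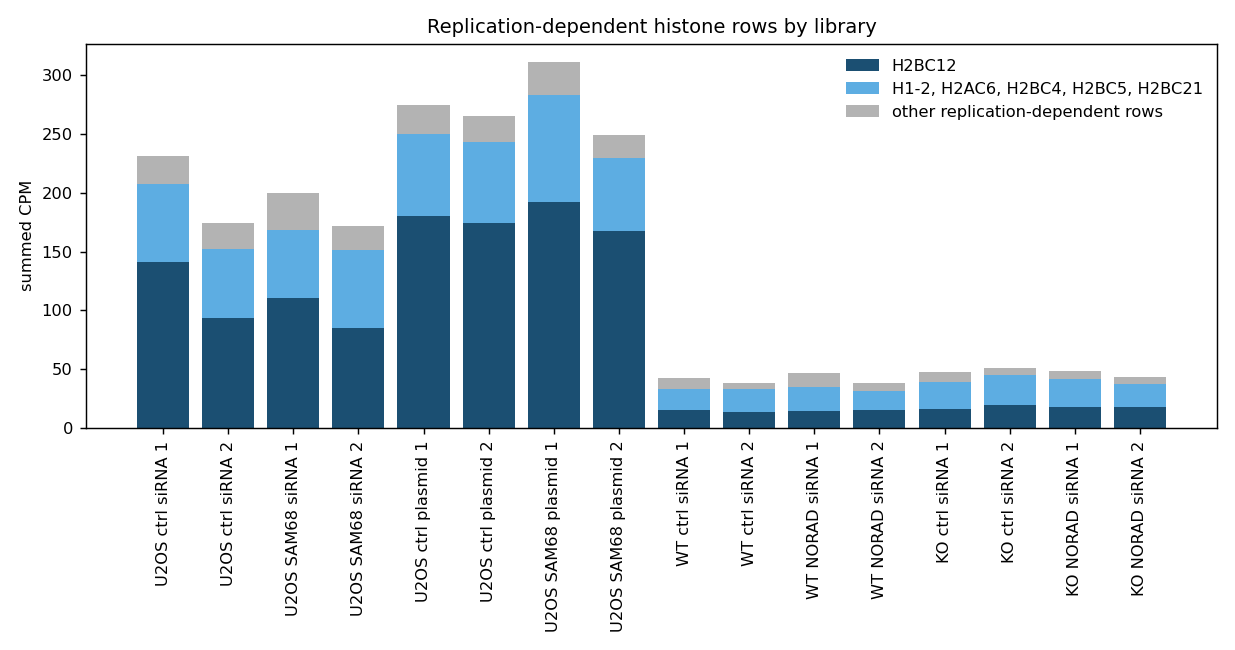
Summed CPM of the 65 replication-dependent histone rows in each of the 16 libraries (bars, linear axis from 0), split into H2BC12, the other 5 genes described here and all other rows. The 8 U2OS libraries sum to 172 to 311 CPM and the 8 HCT116 libraries to 38.4 to 50.9 CPM, with H2BC12 the largest block in each U2OS library.

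Of the 10 comparisons, that of the cell lines called the most of the 9 genes. In U2OS against wild-type HCT116, both with control siRNA, all 6 replication-dependent members were higher and H2AZ1 and H3-3B were lower, so that 8 of 9 passed the test (edgeR quasi-likelihood, adjusted p below 0.05), where 65.4% of all 16444 genes tested did. By direction, 6 were higher against 35.6% of all genes, and 2 lower against 29.8%. The median log2 fold change of the 9 was 1.38, beside 0.10 over all genes tested. Over all treatments, 7 of the 9 had U2OS and HCT116 libraries that did not overlap, as had 51.3% of all genes tested. Line and the making of its libraries cannot be told apart, and n = 2 per group throughout.

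H2BC21, an H2B gene of the chromosome 1 cluster, showed the greatest change among the 9. It read 11.5 and 14.8 CPM in U2OS and 0.67 and 0.75 CPM in wild-type HCT116 with control siRNA. The wild-type HCT116 values are near the floor and rest on 14 and 12 expected counts. All 8 U2OS libraries (9.97 to 16.4 CPM) lay above all 8 HCT116 libraries (0.52 to 1.46 CPM). The log2 fold change was 4.20 ± 0.37 (SE), or 18.4-fold, with an edgeR adjusted p of 2.22e-07.

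H2BC12 lies in the large histone cluster of chromosome 6 and gave the most reads of the 6. It stood at 141 and 93.2 CPM in U2OS and at 14.9 and 13.2 CPM in wild-type HCT116, an 8.34-fold difference (log2 3.06 ± 0.21, edgeR adjusted p = 1.79e-08). The lowest of the 8 U2OS libraries, at 85.2 CPM, was above the highest HCT116 library, at 19.2 CPM.

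H2BC4 and H2AC6 face away from each other on chromosome 6, with 246 bases between their annotated starts. H2BC4 read 1.28 and 1.44 CPM in U2OS against 0.34 and 0.25 CPM in wild-type HCT116, which was log2 2.17 ± 0.54 (edgeR adjusted p = 0.00279). H2AC6 read 5.00 and 2.95 CPM against 1.69 and 1.32 CPM, which was log2 1.38 ± 0.32 (edgeR adjusted p = 0.00175). Neither gene had a U2OS library as low as any HCT116 library. The H2BC4 values of wild-type HCT116 with control siRNA rest on 7.21 and 4 expected counts.

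H2BC5 read 9.38 and 8.12 CPM in U2OS and 2.79 and 2.33 CPM in wild-type HCT116. It was 3.40-fold higher in U2OS, at log2 1.76 ± 0.23 (edgeR adjusted p = 1.17e-05). H1-2, a replication-dependent linker histone, read 39.1 and 31.6 CPM against 12.9 and 15.03 CPM, which was log2 1.34 ± 0.23 (edgeR adjusted p = 0.000141). For both genes all 8 U2OS libraries were above all 8 HCT116 libraries.

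The replication-independent members went the other way or were not called. H3-3B read 566 and 524 CPM in U2OS and 1018 and 983 CPM in wild-type HCT116, a log2 fold change of -0.88 ± 0.13 (edgeR adjusted p = 3.85e-05). H2AZ1 read 697 and 555 CPM against 964 and 875 CPM, a log2 fold change of -0.55 ± 0.17 (edgeR adjusted p = 0.0107). The H2AZ1 call was lost without U2OS control siRNA replicate 2 (log2 -0.39, adjusted p = 0.142) and without wild-type control siRNA replicate 1 (log2 -0.49, adjusted p = 0.0699).

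H1-10, a replication-independent linker histone, read 81.7 and 81.4 CPM in U2OS and 65.4 and 35.6 CPM in wild-type HCT116. Its log2 fold change of 0.69 ± 0.30 did not pass the test (edgeR adjusted p = 0.0532). Leaving out wild-type control siRNA replicate 2 gave 0.31 and leaving out replicate 1 gave 1.19 (adjusted p = 0.00894). Its transcript is 68.6% G and C, where the median gene tested is at 49.6%, and with an offset for GC content the value was 1.81 ± 0.14 (adjusted p = 2.35e-08). DESeq2 (0.74, adjusted p = 0.0277), RLE scaling (0.0415), no filter on low counts (0.00757) and the compared groups alone (0.0092) also called it. The log2 fold change of H1-10 thus depended on both the spread between the 2 wild-type libraries and the GC setting.

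**Figure D2:**
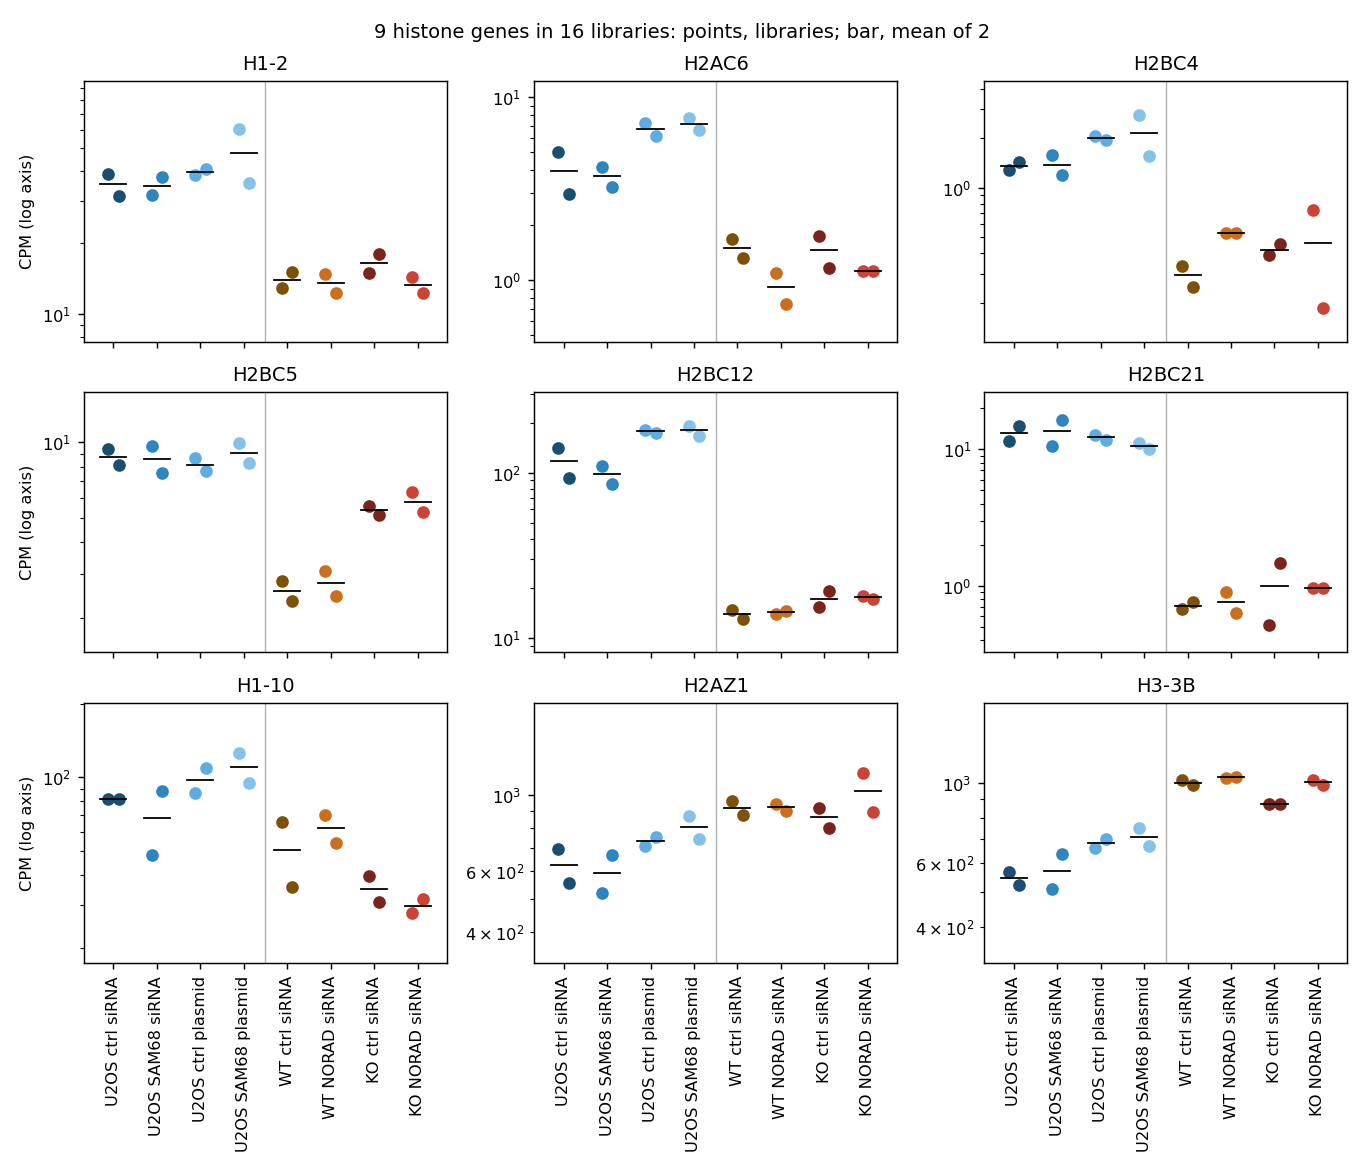
CPM of each of the 9 histone genes in the 16 libraries (log axis, 1 panel per gene), with points for libraries, a bar for the mean of 2 and a vertical line between U2OS and HCT116. The panels of H1-2, H2AC6, H2BC4, H2BC5, H2BC12 and H2BC21 show all U2OS points above all HCT116 points, and in the H2BC5 panel the 4 SAM68 knockout (KO) points, 5.15 to 6.33 CPM, stand clear of the 4 wild-type (WT) points, 2.33 to 3.06 CPM.

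In the wider class, 20 of 65 replication-dependent rows passed the filter on low counts, a list that contains the 6 members, and 13 were called higher and 2 lower in U2OS. Of the 20, 10 passed the filter of the U2OS libraries alone but not that of the HCT116 libraries, and 2 the reverse. Rows kept through the line where they are high had to differ, so these counts carry no support for a direction. Of the 7 rows that passed in each line by itself, 6 of them the members, 7 were called higher. This count thus mostly repeats the members. Over all 16444 genes tested, 35.6% were called higher and 29.8% lower, and the share among genes that passed in each line was not counted. Among the others, H2BC11 read 10.1 and 9.02 CPM in U2OS and 0.19 and 0.13 CPM in wild-type HCT116. Of the 12 replication-independent genes, 4 were higher and 5 lower (median log2 -0.10), with the centromeric H3 gene CENPA at 1.27 ± 0.16 and H3-5 at -2.86 ± 0.38.

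The factors that form histone RNA ends and poly(A) tails were also compared. Of the 26 tested, 3 were higher and 12 lower in U2OS, with a median log2 of -0.33, beside 35.6% higher and 29.8% lower over all genes. SLBP, which binds the stem-loop, read 59.4 and 53.0 CPM in U2OS and 146 and 154 CPM in wild-type HCT116, a log2 fold change of -1.42 ± 0.12 (edgeR adjusted p = 1.97e-07). ERI1, an exonuclease that trims histone RNA ends, was at -1.17 ± 0.24 and CSTF2T, a cleavage stimulation factor, at 0.64 ± 0.13. SLBP was thus lower in U2OS, where the 6 replication-dependent members were higher, and its part in their levels was not tested.

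Lists for the cell cycle and for histone handling were counted in the same comparison. Beside them, 35.6% of all genes tested were called higher and 29.8% lower, and no list was tested as a set. Of 25 S phase genes 4 were higher and 13 lower in U2OS (median log2 -0.43), with CCNE1, a G1/S cyclin, at 0.999 ± 0.13 and MCM6, a subunit of the replicative helicase, at -0.90 ± 0.12. Of 30 histone chaperones 5 were higher and 10 lower (median log2 -0.27), with NASP, an H3-H4 chaperone, at 0.87 ± 0.13 and ASF1B at -1.20 ± 0.19. Of 12 genes linked to leaving the cell cycle 6 were higher and 2 lower (median log2 0.49), with CCNG2, an atypical cyclin, at 2.40 ± 0.24 and YPEL3 at 3.86 ± 0.36.

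In HCT116, the SAM68 knockout line had more H2BC5 RNA and less H1-10 RNA than wild type. Taken over both siRNAs, with 4 libraries a genotype, these 2 of the 9 genes were called by edgeR, where 17.6% of the 13764 genes tested were called. The count for the 9 genes, 2, is near that background. The median log2 fold change of the 9 was 0.11, beside -0.01 over all genes.

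H2BC5 read 2.79 and 2.33 CPM in wild-type cells with control siRNA and 3.06 and 2.43 CPM with NORAD siRNA. The knockout libraries read 5.59 and 5.15 CPM with control siRNA and 6.33 and 5.27 CPM with NORAD siRNA. The genotypes did not overlap, and the means were 5.58 and 2.65 CPM. The log2 fold change was 1.08 ± 0.16 (edgeR adjusted p = 0.00669, 95% interval 0.72 to 1.43), higher than for 99.4% of genes tested. With control siRNA alone the value was 1.07 ± 0.23 and did not pass (edgeR adjusted p = 0.13, where 0.312% of genes were called). The H2BC5 transcript is 50.6% G and C, close to the median, and an offset for GC content left the value at 1.09 ± 0.15.

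The H2BC5 row joins RefSeq transcripts of unequal length, and the length deposited for a row is a mean weighted by the estimated share of each. It was 813 bases in 3 of the 4 knockout libraries and 772 bases in the fourth, knockout control siRNA replicate 2. No library exceeded 813 bases. Wild-type HCT116 gave 797 and 716 bases with control siRNA and 775 and 784 bases with NORAD siRNA, and U2OS gave 694 to 770 bases. The row thus leaned most to its longer transcripts in the knockout libraries, and the ranges of the 2 genotypes overlapped (772 to 813 against 716 to 797 bases). With the deposited effective length as an offset, H2BC5 was still called in the knockout comparison.

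**Figure D3:**
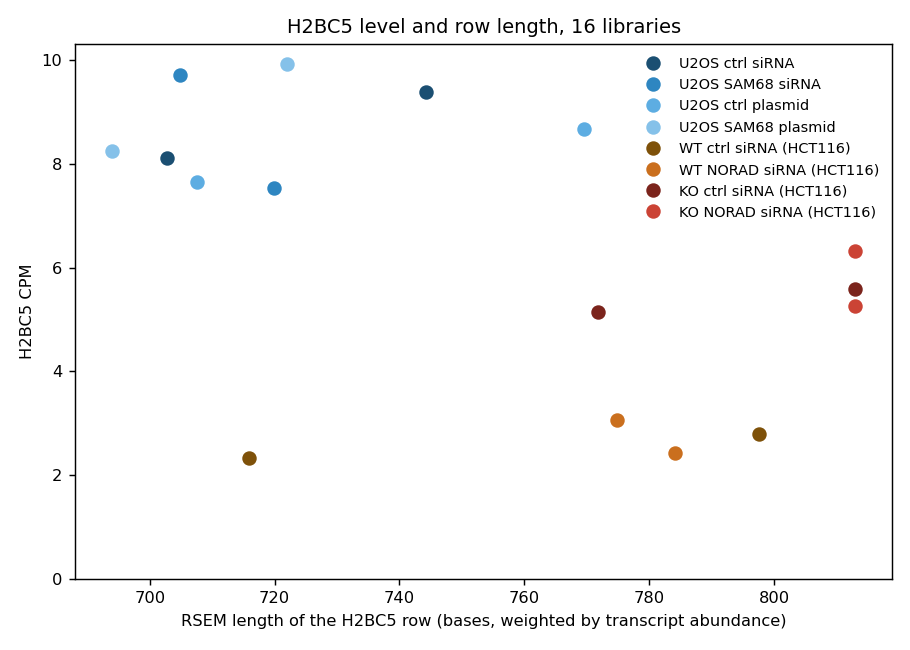
H2BC5 level (CPM, linear axis from 0) against the deposited RSEM length of its row (bases) in the 16 libraries, coloured by group (WT, wild type; KO, SAM68 knockout). The KO points lie at 772 to 813 bases and 5.15 to 6.33 CPM, the wild-type HCT116 points at 716 to 797 bases and 2.33 to 3.06 CPM, and the U2OS points at 694 to 770 bases and 7.53 to 9.93 CPM.

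H1-10 read 65.4, 35.6, 69.9 and 53.9 CPM in the 4 wild-type HCT116 libraries and 39.4, 30.9, 27.8 and 31.9 CPM in the 4 knockout libraries. The groups overlapped through wild-type control siRNA replicate 2, at 35.6 CPM. The log2 fold change was -0.78 ± 0.18 (edgeR adjusted p = 0.0235). Across all genes the knockout fold changes fell as transcript GC content rose (Spearman rho -0.64, across genes, which are not independent replicates), and H1-10 is among the GC-rich genes. With the GC offset its value was -0.39 ± 0.06 and stayed called (adjusted p = 0.00556). The call was lost in 4 of the 8 fits that left out 1 library, namely without wild-type NORAD siRNA replicate 1 (adjusted p = 0.109), knockout control siRNA replicate 2 (0.0841), knockout NORAD siRNA replicate 1 (0.0935) and knockout NORAD siRNA replicate 2 (0.0612).

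H2BC12 did not pass in the main fit, although its genotypes did not overlap, which held for 2 of the 9 members and 18.9% of all genes tested. It read 14.9, 13.2, 14.1 and 14.7 CPM in wild type and 15.5, 19.2, 18.1 and 17.3 CPM in knockout, at log2 0.32 ± 0.10 (edgeR adjusted p = 0.0568). With the GC offset it was 0.54 ± 0.11 (adjusted p = 0.0192), and it was also called without knockout control siRNA replicate 1 (0.37, adjusted p = 0.0361). H3-3B, at -0.11 ± 0.06, was called only with that offset (-0.28 ± 0.07, adjusted p = 0.0339), alone or with the replicate block. The other 5 genes lay between 0.04 (H2AZ1) and 0.43 (H2BC21). Their 95% intervals were -0.17 to 0.26 for H2AZ1, -0.14 to 0.37 for H1-2, -0.46 to 0.68 for H2AC6, -0.94 to 1.15 for H2BC4 and -0.33 to 1.20 for H2BC21. A doubling could not be told from no change for H2BC4 and H2BC21 at this depth.

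**Figure D4:**
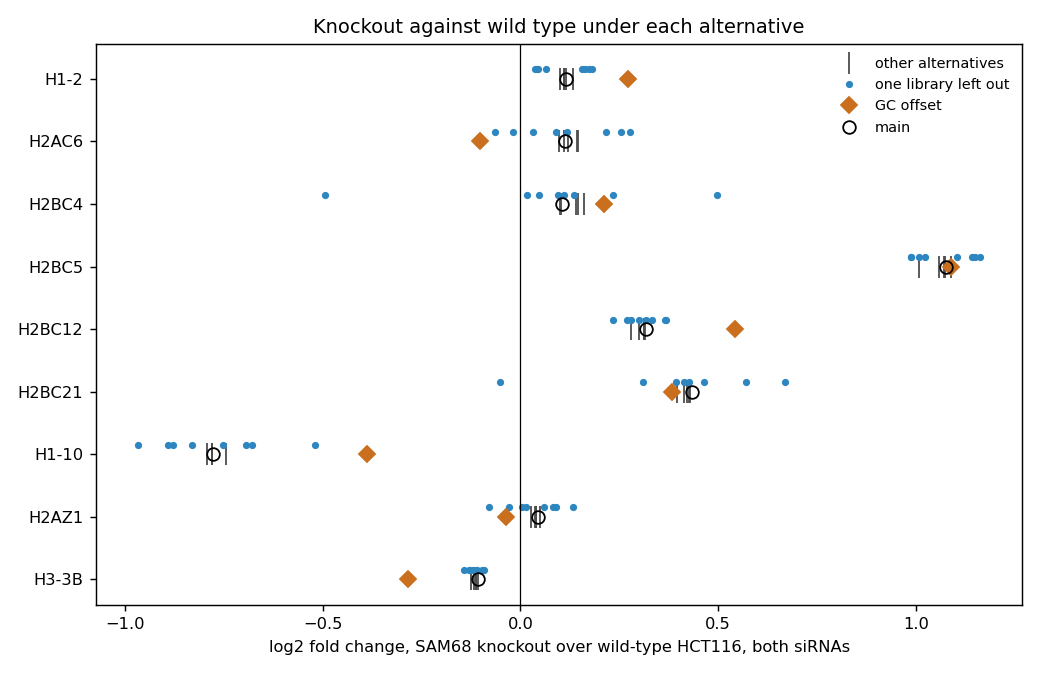
Log2 fold change of the 9 histone genes in SAM68 knockout over wild-type HCT116, both siRNAs (linear axis), in the main fit (open circles), with a GC offset (diamonds), with 1 library left out (dots) and under the other alternatives (ticks). H2BC5 stays between 0.99 and 1.16, whereas H1-10 moves from -0.97 to -0.39. The fit with GC offset and replicate block together is not drawn.

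The wider lists in the same comparison are given beside all 13764 genes tested, of which 1513 were called higher and 911 lower. Of 9 tested replication-dependent rows H2BC5 was the 1 called. Of 12 replication-independent genes 3 were lower and 0 higher (median log2 -0.13), among them MACROH2A2 (-0.55 ± 0.11) and H1-10. CDKN1A, the p21 inhibitor of cyclin-dependent kinases, read 166, 140, 137 and 119 CPM in wild type and 349, 340, 267 and 246 CPM in knockout, with no overlap (log2 1.10 ± 0.08, edgeR adjusted p = 0.000143). BTG2, an antiproliferative gene, was at 0.72 ± 0.08, and 3 of 11 tested exit genes were higher and 0 lower (median log2 0.31). Of 25 S phase genes 1 was higher and 8 lower (median log2 -0.10), with MCM7 at -0.33 ± 0.07 and the chromatin factor UHRF1 at -0.39 ± 0.09. Of 30 chaperones 1 was higher and 7 lower (median log2 -0.09), with MCM2 at -0.36 ± 0.08, TONSL at -0.63 ± 0.13 and ASF1B at -0.36 ± 0.08. Of 26 end-formation and poly(A) factors 5 were higher and 3 lower (median log2 -0.02), with the poly(A) polymerase gene PAPOLA at 0.45 ± 0.10 and the cleavage factor gene CPSF4 at -0.31 ± 0.07. These lists were counted in the main fit only. Fold changes in this comparison fell as transcript GC content rose (Spearman rho -0.64, across genes, which are not independent replicates). With the GC offset 1092 genes were called, against 2424 in the main fit. Whether the list values hold under that offset was not tested. The part of the listed genes in the H2BC5 and H1-10 values was not tested either.

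Lowering NORAD changed none of the 9 past the test. In each genotype, and over both together, edgeR called 0 of 9, where 0.00727% of genes were called (1 gene, NORAD itself). DESeq2 also called 0 of 9. In wild type the log2 fold changes ran from -0.69 (H2AC6) to 0.81 (H2BC4), the latter from 4 to 13.3 expected counts per library. In the knockout they ran from -0.34 (H2AC6) to 0.26 (H2AZ1). H3-3B was the 1 member with an unadjusted p below 0.05, in the knockout, at 871 and 872 CPM with control siRNA and 1019 and 987 CPM with NORAD siRNA (log2 0.21 ± 0.09, edgeR adjusted p = 0.431). Over the alternatives this H3-3B value ran from 0.06 to 0.24, and from 0.18 to 0.24 with 1 library left out. Fold changes of NORAD siRNA in the knockout fell as transcript GC content rose (Spearman rho -0.70, across genes, which are not independent replicates). The H3-3B transcript is 43.1% G and C. H2AC6 did not pass either, at log2 -0.52 ± 0.25 over both (edgeR adjusted p = 0.997, 95% interval -1.09 to 0.05). The test of the difference between the genotypes called 0 of 9 members and 0% of all genes, with 0 members at an unadjusted p below 0.05 and 0 called by DESeq2. No gene of the 6 lists was called in the NORAD comparisons. For H2BC5 that difference was 0.02 (95% interval -0.70 to 0.73).

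In U2OS neither lowering nor adding SAM68 moved any of the 9 past the test. SAM68 siRNA gave 0 calls of 9, where 0.00639% of 15658 genes were called, with log2 fold changes of -0.31 (H1-10) to 0.02 (H3-3B). The SAM68 plasmid gave 0 of 9, again beside 0.00639%, with values of -0.21 (H2BC21) to 0.27 (H1-2). In both, 0 members had an unadjusted p below 0.05 and DESeq2 called 0, and the 6 lists had no called gene. KHDRBS1 itself missed the threshold here (adjusted p = 0.185 with siRNA and 1 with the plasmid), so these fits could miss changes of that size. H2BC5, higher in the knockout HCT116 line, was at 9.72 and 7.53 CPM with SAM68 siRNA and 9.38 and 8.12 CPM with control siRNA. Its log2 fold change in U2OS was -0.07, with a 95% interval of -0.60 to 0.46. The knockout estimate of 1.08 lies outside that interval, but a difference between the lines was not tested.

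No member passed the test between the 2 kinds of control in U2OS, and H2AC6 and H2BC12 came closest. H2AC6 read 5.00 and 2.95 CPM with control siRNA and 7.25 and 6.12 CPM with control plasmid. H2BC12 read 141 and 93.2 CPM against 181 and 175 CPM. Groups did not overlap for 6 of the 9 members, these 2 among them, where 66.3% of all genes tested did not overlap. The tools edgeR and DESeq2 each called 0 of 9 members, with 0 at an unadjusted p below 0.05 (edgeR adjusted p = 0.229 for H2AC6 at log2 -0.66 ± 0.30 and 0.232 for H2BC12 at -0.51 ± 0.24), where 1.30% of genes were called. The median of the 9 was -0.17, beside 0.11 over all genes. H2AC6 was called with a GC offset (-0.92 ± 0.26, adjusted p = 0.0482), and H2BC12 in a fit of the 4 compared libraries alone (-0.58 ± 0.18, adjusted p = 0.0471). The kind of transfection and any difference in date cannot be told apart. Of the 12 exit genes 1 was called, CCNG2, at 1.76 ± 0.23, and 0 genes of the other 5 lists were.

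**Figure D5:**
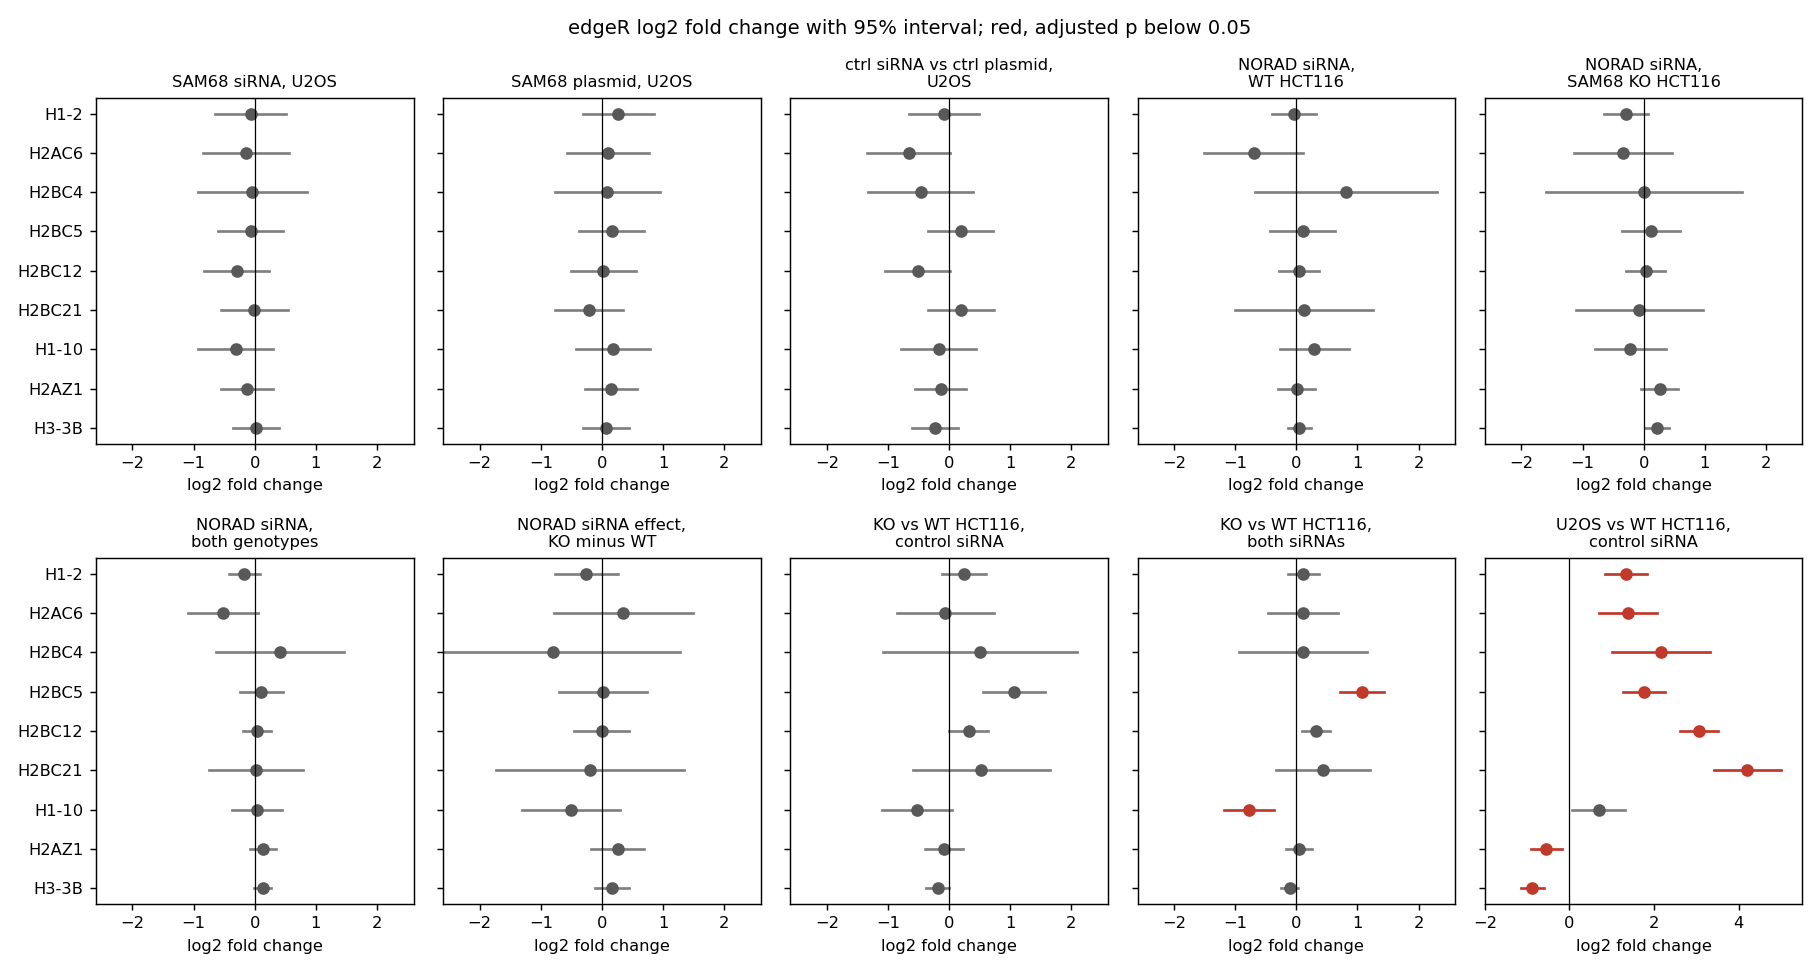
Log2 fold change (dots) with 95% interval (lines) of the 9 histone genes in the 10 comparisons, 1 panel each; the U2OS against HCT116 panel has its own axis range, and the H2BC4 interval in the panel of the difference runs beyond the axis. Red marks an adjusted p below 0.05: 8 genes in U2OS against wild-type HCT116, H2BC5 and H1-10 in KO against WT over both siRNAs, and 0 elsewhere.

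Of all pairs of members, H2AC6 and H2BC12 had the highest correlation across the U2OS libraries. The Pearson correlation of their log2 CPM was 0.98 over the 8 U2OS libraries and -0.09 over the 8 HCT116 libraries, where H2AC6 had 14 to 35 expected counts. The other U2OS pairs ran from -0.68 (H2AC6 and H2BC21) to 0.94 (H2AZ1 and H3-3B). H2AZ1 and H3-3B had the highest value over all 16 after each line was centred, at 0.83. These are descriptions over libraries that share treatments, and the U2OS values contain the step between siRNA and plasmid libraries.

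The octamer ATTTGCAT, a histone H2B promoter motif, lay in the promoter windows of H2AC6, H2BC4, H2BC12, H2BC21 and H3-3B. All 6 replication-dependent members were called higher in U2OS, so the motif cannot be set against the calls within that class. Its share among other H2B genes was not counted. The promoters of H2AC6, H2BC12 and H2BC21 are shown for where the octamer lies, and H2BC4 shares its copy with H2AC6. RefSeq windows (GRCh38.p14) were matched for all 9 genes. The 150 bases before the start are printed, with capitals for the octamer and for TATAAA on either strand.
H2AC6: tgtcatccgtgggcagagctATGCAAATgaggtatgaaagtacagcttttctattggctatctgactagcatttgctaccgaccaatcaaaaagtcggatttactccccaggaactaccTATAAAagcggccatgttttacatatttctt
H2BC12: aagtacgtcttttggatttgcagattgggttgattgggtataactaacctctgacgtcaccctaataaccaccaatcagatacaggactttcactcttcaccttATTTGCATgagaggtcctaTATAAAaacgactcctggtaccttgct
H2BC21: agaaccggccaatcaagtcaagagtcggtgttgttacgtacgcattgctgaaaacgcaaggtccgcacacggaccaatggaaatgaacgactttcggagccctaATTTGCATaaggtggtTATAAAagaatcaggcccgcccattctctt

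They lie at chr6:26124022-26124171 on the plus strand, chr6:27146859-27147008 on the minus strand and chr1:149886683-149886832 on the minus strand. The octamer is the site read by OCT1 in H2B promoters. It began 46 bases before the start in both H2BC12 and H2BC21. In the pair H2AC6 and H2BC4 a single copy lay in the 255 bases that their 300-base windows share, in the H2B orientation for H2BC4 and reversed for H2AC6. H3-3B had a reversed copy, and H2BC5, H1-2, H1-10 and H2AZ1 had none in their windows. Over 35116 RefSeq promoter windows of 300 bases, 1.77% held the octamer on either strand and 11.5% held TATAAA. A match or its absence is a description of these letters.

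The genes most like each member were found by Pearson correlation of log2 CPM over 16 libraries, centred within each line, among 9852 genes of at least 5 CPM in both lines. H1-10 had TP53I13 (0.97), SAMD1 (0.96) and the histone variant gene H2AX (0.95). H2AZ1 had ATP5MC3 and PDHB (both 0.94) and CENPW (0.94). H3-3B had TOR1A (0.94), BIRC5 (0.93) and ILF2 (0.92). H2BC12 had ANAPC13, TIPIN and UBXN8 (each 0.94). H2AC6 had AFAP1L1 (0.88), COA6 (0.85) and TMEM158 (0.85), and H1-2 had UIMC1 (0.84), a row that joins ARPC4 and TTLL3 (0.81), and MPV17 (0.81). The rows most like H2BC5 were one that joins FAM177A1 with a neighbour (0.94), one that joins BORCS7 and AS3MT (0.92), and SPA17 (0.90), with 0.54, 0.60 and 0.29 within U2OS and 0.97, 0.99 and 0.96 within HCT116. H2BC4 had STX8, OARD1 and RPS7 (each 0.77) and H2BC21 had EXD2 (0.77), CDR2 and RNF115 (each 0.73), the 2 members with the lowest values and the fewest reads in HCT116. All of these values share the libraries, their depth and their GC trends.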

How the data were processed

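Gene-level values were taken from 16 libraries, 1 file each. Reads were aligned to hg19 and summarised with STAR and RSEM, per the submitters' processing notes. Their versions and strand settings were not given in the sources at hand. The libraries were strand-specific, per the labels' protocols. The expected counts (estimated read counts that need not be whole) and TPM values were used as deposited by the authors, and the deposited row length is weighted by transcript abundance. Rows without a gene symbol held 2.17% of counts. Expected counts were rounded and tested with edgeR 4.0.16 (filterByExpr, TMM, quasi-likelihood test, Benjamini-Hochberg over all genes tested, threshold 0.05), in R 4.3.3. Fits used the 8 U2OS libraries (15658 genes), the 8 HCT116 libraries (13764) or all 16 (16444), and were tested on simulated data. CPM use TMM factors over all 16 libraries, so ratios of CPM can differ slightly from fitted fold changes. Log2 CPM used a prior count of 2.

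The named genes are the 9 members, KHDRBS1 and NORAD, at most 3 genes per list by smallest p, and the 3 genes most like each member. H2BC11 is given by that rule. A gene that this rule names from the replication-independent list is not reported here. The members and the 6 gene lists (replication-dependent and replication-independent histones, end-formation and poly(A) factors, chaperones, S phase, cell cycle exit) were chosen with earlier results of these data known. Of 31 chaperones listed, 30 had a row. Alternatives were DESeq2 1.42.0, RLE scaling, no filter, a replicate block, effective-length and GC offsets (lowess on GENCODE transcript GC, 97.4% of genes), single libraries left out and the compared groups alone. The 2 libraries of each group differed by more than counting noise (chi-square 7.83 to 60.1 per gene). Stem-loops were searched in GENCODE 29 transcripts with a pattern that allows the known variable bases, and motifs on both strands of RefSeq promoter windows.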

Additional observations from a re-analysis of the deposited data

How the results depend on the processing

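Over 129 recounts of called members in 10 comparisons, 117 stayed within 1.5 times the main count and 12 moved. In the knockout comparison over both siRNAs, 4 members were called with the GC offset, with or without the replicate block, and 1 to 3 when 1 library was left out. H2BC5 was called in all 15 alternatives there. With control siRNA alone, 0 members in the main fit became 2 with no filter on low counts (H2BC5 at 1.05 and H1-10 at -0.54), 1 with the replicate block (H2BC5 at 1.08, adjusted p = 0.0251) and 3 with GC offset and block. For control siRNA against control plasmid, 0 became 1 with the GC offset, with that offset and the block, and with the compared groups alone. U2OS against HCT116 gave 7 to 9 called members. The count in the 6 comparisons of SAM68 siRNA, SAM68 plasmid and NORAD siRNA stayed at 0 in every alternative. No called member reversed.

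The replicate numbers were not taken as pairs, since the labels do not say what they mark and the correlations of replicate differences were -0.26 to 0.45 in U2OS and 0.06 to 0.35 in HCT116. The block raised the called members in the knockout comparison over both siRNAs from 2 to 3, adding H2BC12 (adjusted p = 0.0207). Over all genes, that comparison called 2424 in the main fit, 5247 with the block, 1092 with the GC offset, 3772 with no filter and 201 to 3144 with 1 library left out. Control siRNA against control plasmid called 204 genes (79.4% of them higher), 1020 with DESeq2 (54.7% higher), 184 with RLE scaling (67.9% higher), 1609 with no filter, 1682 with the GC offset, 3386 with the compared groups alone and 1 to 54 with 1 library left out. The cause was not tested. Depth limits H2BC4, H2BC21 and H2AC6 in HCT116 most.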
